A study of Mus musculus with 24 samples.

Results

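The cartilage plate of the mouse ear was followed through 10 genes of its extracellular matrix, Acan, Col2a1, Col9a1, Col9a2, Col9a3, Col11a2, Comp, Matn1, Matn3 and Hapln1. The genes were chosen by name from the 51912 gene rows of the count table, each through its Ensembl identifier; the rule uses no measured value, but earlier results of these data were known when the genes were picked. All 10 were found, 9 passed the filter on low counts that left 17289 genes for testing, and Matn1 did not. RNA of whole ears of C57BL/6 mice was sequenced in 24 libraries of 4 groups with 6 libraries each: wild type and mutant at day 5, and wild type and mutant at 1 month, counted from the first tamoxifen injection. The mutant carries Card14LSL-E138A, a knock-in allele at the Card14 locus whose E138A form of the signalling scaffold CARD14 is switched on by a tamoxifen-activated Cre recombinase (CreERT2). Tamoxifen was injected into the abdomen on 3 consecutive days in wild type and mutant alike, so every group had received it. The series' design text gives as its purpose the immediate and lasting effects of a psoriasis-associated mutation that keeps NF-κB signalling on. The labels used here do not name the promoter that drives CreERT2, the age or sex of the mice, or whether the wild-type mice carried Cre, nor do they say that each library came from a separate mouse, so p-values measure the spread between libraries.

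Cartilage consists of chondrocytes in a matrix that they secrete. Its fibrils are built mainly of type II collagen with type XI collagen in their core and type IX collagen on their surface, and the space between them is filled by aggrecan, a proteoglycan whose sulphated sugar chains hold water and which is tied to hyaluronan by link protein. COMP and the matrilins are smaller glycoproteins that join fibrils, proteoglycans and cells to each other. The ear holds elastic cartilage, in which elastic fibres run through the same matrix, and whole ear RNA mixes it with epidermis, dermis, fat, muscle and blood cells. Levels in such bulk RNA are shares of each library's total. Fewer chondrocytes, less RNA per chondrocyte and more RNA from other tissues therefore cannot be told apart.

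Stretches of coding sequence are shown first, since the transcripts fall into the collagens and the rest by their sequence, and their base composition returns below beside the values. Each line holds 81 bases from GENCODE M21 transcripts (GRCm38), and capitals mark GGN codons, which encode glycine. In the collagen genes a glycine codon recurs after each pair of other codons along the triple helix, which runs without a break for 339 codon triplets in Col2a1, 338 in Col11a2 and 113 in Col9a1. Hapln1 encodes no triple helix, and its line starts at the start codon.
Col2a1: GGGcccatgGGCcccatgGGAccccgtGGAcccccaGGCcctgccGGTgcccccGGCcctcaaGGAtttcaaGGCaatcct
Col11a2: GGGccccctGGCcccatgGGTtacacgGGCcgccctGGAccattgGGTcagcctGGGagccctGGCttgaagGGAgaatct
Col9a1: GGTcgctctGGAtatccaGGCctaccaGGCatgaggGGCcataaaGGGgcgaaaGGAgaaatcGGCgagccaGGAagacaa
Hapln1: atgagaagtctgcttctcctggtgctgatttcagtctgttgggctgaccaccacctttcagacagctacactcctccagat
Pooled over all GENCODE M21 transcripts of a gene, the GC content was 60.4% for Col2a1, 64.1% for Col11a2, 63.1% for Col9a2, 59.0% for Col9a3 and 59.9% for Comp. It was lower for Col9a1 at 52.2%, Matn3 at 44.9% and Hapln1 at 40.3%, the lowest of the 10.

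Cartilage matrix RNA was lower in the mutant ears at both times. At day 5, 9 of the 9 tested genes fell, against a background of 20.2% of all tested genes called lower, and in 8 of the 9 every mutant library lay under every wild-type library, against 16.7% of all genes. At 1 month 8 of 9 fell, against 21.5% of all genes, and 5 of 9 did not overlap between the genotypes, against 11.1%. The median log2 fold change of the 9 genes was -2.01 at day 5, where that of all tested genes was -0.02, and -1.43 at 1 month, where that of all genes was 0.05. Calls are edgeR quasi-likelihood tests over all 17289 genes with a Benjamini-Hochberg adjusted p below 0.05, and levels are CPM, the counts scaled to an equal total in every library. Summed over the 10 genes, the level was 663 ± 76.3 CPM in wild type and 237 ± 70.4 in the mutant at day 5, and 807 ± 218 and 262 ± 62.9 at 1 month (SD, n = 6).

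**Figure D1:**
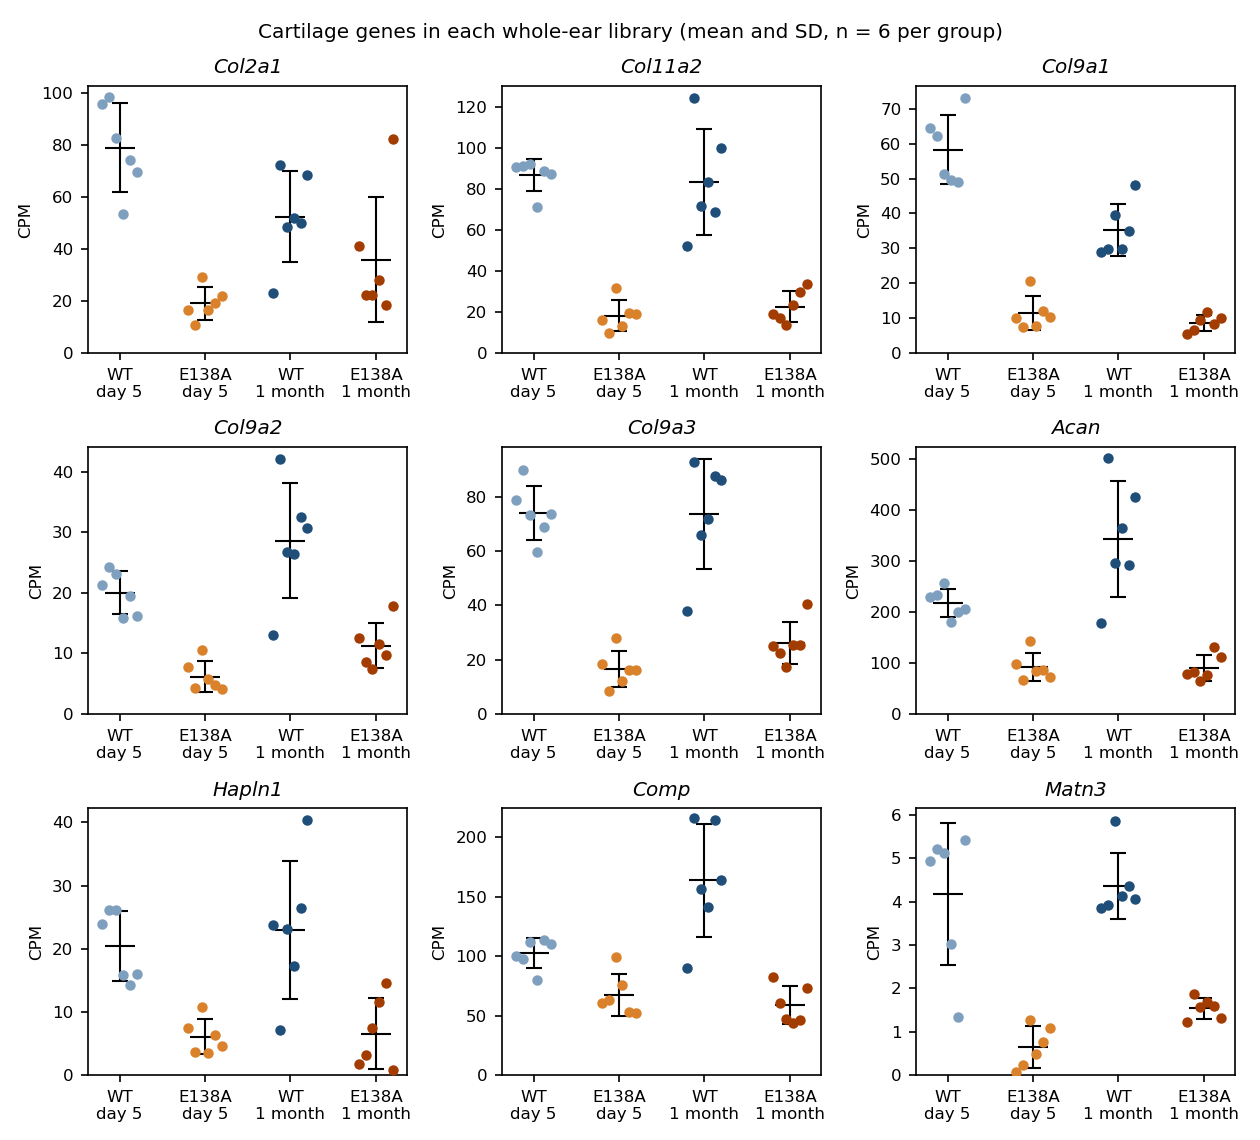
Level of each of the 9 tested cartilage genes (vertical axis, CPM) in every library of the 4 groups (horizontal axis), with the mean and SD over 6 libraries as black bars. At day 5 the wild-type and mutant points are separate in every panel except Comp, and at 1 month the highest mutant Col2a1 library, at 82.3 CPM, lies above all wild-type libraries.

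Libraries held between 15661565 and 23905012 counts, fewer at day 5 (15661565 to 18852995) than at 1 month (19255064 to 23905012). Card14 itself had 46.0 ± 7.65 CPM in wild type and 45.3 ± 11.9 in the mutant at day 5 (SD, n = 6), and 41.7 ± 7.30 and 13.9 ± 4.82 at 1 month, where it fell (log2 fold change -1.49 ± 0.20, edgeR adjusted p = 1.6e-06). Gene counts do not separate the E138A allele from the normal one, so they check no label. Among the 1 month libraries, the GC content of genes went along with how far they lay from their group's median: the Spearman correlation across genes, called the GC correlation of a library here, ran from -0.64 to 0.73, and from -0.24 to 0.44 at day 5. At 1 month it was above 0 in wild-type replicates 2, 4 and 5 and mutant replicates 1, 2 and 6, and below 0 in the other 6 libraries. The genotypes were divided evenly in number but not matched in value. Above 0 it ran from 0.18 to 0.63 in wild type and from 0.46 to 0.73 in the mutant. Below 0 it ran from -0.59 to -0.03 in wild type and from -0.64 to -0.59 in the mutant.

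Col2a1 encodes the chain of type II collagen, the main fibril collagen of cartilage, and is a defining marker of chondrocytes (ENSMUSG00000022483, GRCm38 chromosome 15, 97975602 to 98004695). At day 5 it ranged from 53.3 to 98.4 CPM in wild type (median 78.6) and from 10.9 to 29.4 in the mutant (median 17.9). The 6 mutant libraries all lay below the 6 wild-type ones, and the gene was 4.01-fold lower (log2 fold change -2.01 ± 0.33, edgeR adjusted p = 4.5e-05). At 1 month it ranged from 23.3 to 72.6 CPM in wild type (median 51.1) and from 18.6 to 82.3 in the mutant (median 25.3). The groups overlapped there, and the difference did not pass the test (-0.45 ± 0.32, edgeR adjusted p = 0.273, with an approximate 95% interval of -1.08 to 0.18).

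A single library set the result for Col2a1 at 1 month. Mutant replicate 6 had 82.3 CPM, and the next mutant library had 41.3. Without it, Col2a1 fell at 1 month as well (log2 fold change -0.95, edgeR adjusted p = 0.0051). That library had the highest GC correlation of all, 0.73, and the 3 mutant libraries below 0 held 18.6 to 28.1 CPM. The part of base composition in the value was not tested.

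Col2a1 was also the only tested gene of the 9 whose genotype difference changed between the times (interaction 1.56 ± 0.46 on the log2 scale, edgeR adjusted p = 0.034), against 8.77% of all genes. A count of 1 in 9 is near that share of all genes. The call for Col2a1 was close to the threshold. It was lost, at adjusted p from 0.051 to 0.079, on leaving out any 1 of wild-type day 5 replicates 1, 2 or 3, mutant day 5 replicates 1, 2 or 4, wild-type 1 month replicates 3 or 4, or mutant 1 month replicate 6, the last of which brought it to 1.04. For Comp the interaction of -0.81 ± 0.29 (edgeR adjusted p = 0.091) passed on leaving out wild-type 1 month replicate 1 or mutant 1 month replicates 1 or 6, at adjusted p from 0.026 to 0.049.

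**Figure D2:**
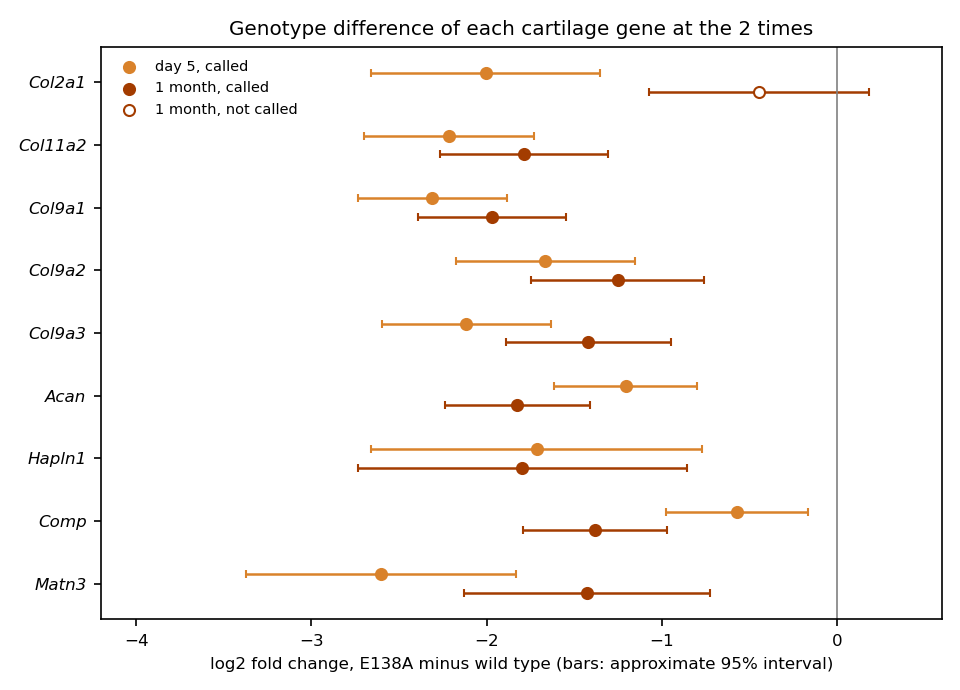
Log2 fold change of mutant against wild type (horizontal axis) for each tested cartilage gene (rows) at day 5 and 1 month, with bars of the approximate 95% interval from the edgeR fit. Filled points passed the test; Col2a1 at 1 month, at -0.45, is the open point, and all points lie left of 0.

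Col11a2 encodes a chain of type XI collagen, which lies inside the type II fibrils and limits their width (ENSMUSG00000024330, chromosome 17, 34039437 to 34066685). In wild type at day 5 it was among the steadiest of the genes, from 71.3 to 92.6 CPM (median 89.9), and the mutant libraries held 9.58 to 31.9 (median 17.5). Its 1 month levels ranged from 52.1 to 125 CPM in wild type (median 77.6) and from 13.7 to 33.7 in the mutant (median 21.1). No mutant library reached the lowest wild-type one at either time. Col11a2 was 4.64-fold lower at day 5 (log2 fold change -2.21 ± 0.25, edgeR adjusted p = 3e-07) and 3.45-fold lower at 1 month (-1.79 ± 0.24, edgeR adjusted p = 2.2e-06).

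Col9a1, Col9a2 and Col9a3 encode the chains of type IX collagen, which decorates the fibril surface and links it to other matrix molecules. Col9a1 (ENSMUSG00000026147, chromosome 1, 24177610 to 24252684) ranged from 49.0 to 73.1 CPM in wild type and from 7.54 to 20.7 in the mutant at day 5, with medians of 56.7 and 10.2. The later libraries, at 1 month, ranged from 29.1 to 48.3 CPM in wild type and from 5.39 to 11.7 in the mutant, with medians of 32.5 and 8.90. The groups were apart at both times, and the gene was 4.96-fold lower at day 5 (log2 fold change -2.31 ± 0.22, edgeR adjusted p = 2.2e-08) and 3.92-fold lower at 1 month (-1.97 ± 0.21, adjusted p = 1.1e-07).

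Col9a3 (ENSMUSG00000027570, chromosome 2, 180597790 to 180622189) ranged from 59.7 to 89.8 CPM in wild type (median 73.4) and from 8.62 to 28.2 in the mutant (median 16.3) at day 5. Its 1 month levels ranged from 38.0 to 92.9 CPM in wild type (median 79.0) and from 17.3 to 40.3 in the mutant (median 25.3), and only wild-type replicate 1, the lowest of its group, lay under the highest mutant library. The gene was 4.33-fold lower at day 5 (log2 fold change -2.11 ± 0.25, edgeR adjusted p = 4.9e-07) and 2.67-fold lower at 1 month (-1.42 ± 0.24, adjusted p = 3.2e-05). Col9a3 overlaps the Tcfl5 gene of the other strand, which had a mean of 1.86 CPM, and no source used here says whether strand was used in counting.

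Col9a2 (ENSMUSG00000028626, chromosome 4, 121039385 to 121055322) was the least abundant type IX chain gene by CPM in both day 5 groups. It ranged from 15.8 to 24.3 CPM in wild type (median 20.4) and from 4.06 to 10.5 in the mutant (median 5.27) at day 5, and from 13.1 to 42.1 (median 28.8) and 7.43 to 17.9 (median 10.6) at 1 month. The groups were apart at day 5 and overlapped at 1 month, and Col9a2 fell at both times (-1.66 ± 0.26 on the log2 scale, edgeR adjusted p = 2.1e-05, and -1.25 ± 0.25, adjusted p = 2.5e-04).

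Acan encodes aggrecan, the large proteoglycan that gives cartilage its resistance to compression (ENSMUSG00000030607, chromosome 7, 79053483 to 79115099). At day 5 it ranged from 181 to 257 CPM in wild type (median 217) and from 67.4 to 143 in the mutant (median 85.1). Its range at 1 month was from 178 to 501 CPM in wild type (median 330) and from 64.4 to 132 in the mutant (median 80.2). The mutant libraries lay below all wild-type ones at both times. Acan was 2.31-fold lower at day 5 (log2 fold change -1.20 ± 0.21, edgeR adjusted p = 6.7e-05) and 3.54-fold lower at 1 month (-1.82 ± 0.21, adjusted p = 2.4e-07), and the change between the times did not pass the test (-0.62 ± 0.29, adjusted p = 0.228).

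Hapln1 encodes link protein, which fastens aggrecan to hyaluronan (ENSMUSG00000021613, chromosome 13, 89539796 to 89611652). At day 5 it ranged from 14.2 to 26.1 CPM in wild type (median 19.97) and from 3.41 to 10.8 in the mutant (median 5.49), with no overlap. In the 1 month libraries it ranged from 7.18 to 40.3 CPM in wild type (median 23.4) and from 0.867 to 14.6 in the mutant (median 5.27), and the groups overlapped. It fell at both times, with the widest errors of the 9 genes (log2 fold change -1.71 ± 0.48, edgeR adjusted p = 0.0062 at day 5, and -1.80 ± 0.48, adjusted p = 0.0033 at 1 month). Gm8546, a gene of the other strand inside it, had a mean of 0.489 CPM.

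The spread of Hapln1 at 1 month went along with the GC correlation of the libraries. In the mutant it had a mean of 1.91 CPM in the 3 libraries above 0 (0.867 to 3.16) and 11.2 in the 3 below 0 (7.38 to 14.6). In wild type the same means were 17.0 and 29.0 CPM. Col2a1, whose transcript is rich in G and C, went the other way, with mutant means of 48.7 CPM above 0 and 23.1 below. Within each set of libraries the mean of the mutant was below that of wild type for both genes.

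**Figure D3:**
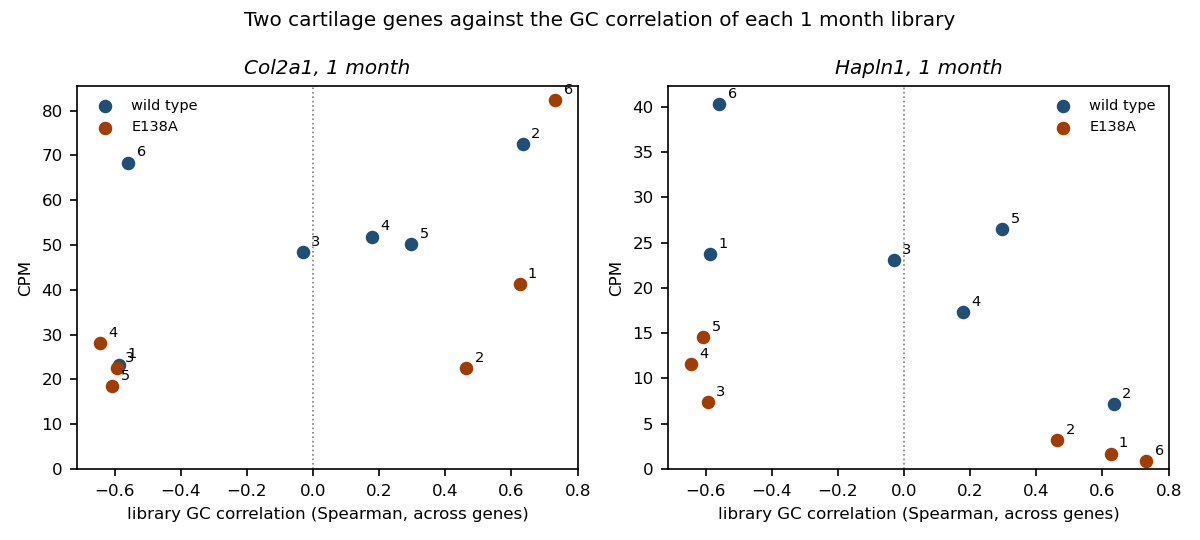
Level of Col2a1 and Hapln1 (vertical axis, CPM) against the GC correlation of each of the 12 libraries at 1 month (horizontal axis, Spearman correlation across genes); numbers are replicates. The mutant libraries right of 0 hold at most 3.16 CPM of Hapln1 and those left of 0 at least 7.38, whereas the highest Col2a1 level, 82.3 CPM, is in the library farthest right.

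Comp encodes cartilage oligomeric matrix protein, a thrombospondin relative that binds collagens and is made in tendon as well (ENSMUSG00000031849, chromosome 8, 70373558 to 70382066). At day 5 it ranged from 80.1 to 113 CPM in wild type (median 105) and from 52.5 to 99.5 in the mutant (median 61.7). The groups overlapped, and its fall, 1.49-fold (log2 fold change -0.57 ± 0.21, edgeR adjusted p = 0.031), was the smallest of the 9 genes. This call was lost, at adjusted p from 0.053 to 0.070, without wild-type day 5 replicate 3, 5 or 6 or mutant day 5 replicate 1, 2, 5 or 6. At 1 month Comp ranged from 90.1 to 216 CPM in wild type (median 160) and from 44.1 to 82.1 in the mutant (median 54.1), with no overlap, and was 2.61-fold lower (-1.38 ± 0.21, adjusted p = 8.6e-06).

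Matn3 encodes matrilin-3, an adaptor between collagens and proteoglycans (ENSMUSG00000020583, chromosome 12, 8947929 to 8972028), and was the least abundant tested member, with 72 counts over the 6 mutant libraries at day 5 and 414 over the 6 wild-type ones. At day 5 it ranged from 1.34 to 5.41 CPM in wild type (median 5.04) and from 0.0595 to 1.27 in the mutant (median 0.62). At 1 month it ranged from 3.86 to 5.87 CPM in wild type (median 4.09) and from 1.21 to 1.88 in the mutant (median 1.57). The groups were apart at both times, and the fall at day 5 was the largest of the 9 genes on the log2 scale (-2.60 ± 0.39, edgeR adjusted p = 1.3e-05, and -1.43 ± 0.36, adjusted p = 0.0020 at 1 month).

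Matn1, which encodes matrilin-1 (ENSMUSG00000040533, chromosome 4, 130944385 to 130955475), was at the limit of detection. It had 0 counts of 98662365 in wild type and 4 counts in 3 mutant libraries at day 5, and 1 count in wild type and 3 counts in 3 mutant libraries at 1 month. A count of 0 in the wild-type group allows a level of up to 0.030 CPM, for counting error only. No fold change is given, since it was not testable at this depth.

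Compared per kilobase of exon, the order of the genes was much the same in the 4 groups at its upper and lower ends. In wild type at day 5 Comp had 34.5 ± 4.26 CPM per kb and Acan 29.1 ± 3.68 (SD, n = 6), and their ranges overlapped. Col9a3 followed at 19.2 ± 2.60, apart from both Acan and the next gene. Col11a2 at 12.7, Col9a1 at 11.5, Col2a1 at 8.56 and Col9a2 at 6.47 CPM per kb each overlapped with their neighbour. Hapln1 at 3.45 and Matn3 at 1.39 CPM per kb came last of the tested genes, each apart from the gene above.

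In the mutant the upper 3 genes were the same at both times, at 22.7 CPM per kb for Comp, 12.3 for Acan and 4.31 for Col9a3 at day 5. The level of Comp relative to Col2a1 in the same library was higher in the mutant at day 5. The log2 ratio of their counts per kb was 2.03 ± 0.29 in wild type and 3.48 ± 0.47 in the mutant (SD, n = 6), with every mutant library above every wild-type one (difference 1.45, two-sided exact permutation p = 0.00216, the smallest that 6 against 6 can give, and 0.00519 adjusted over 12 ratio tests). At 1 month the difference had the opposite sign (3.31 ± 0.31 in wild type and 2.52 ± 0.59 in the mutant, exact permutation p = 0.00866, adjusted 0.0173).

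The fibril collagens were also compared with relatives that are expressed outside cartilage, as ratios within a library. Type I collagen is the main fibril collagen of dermis and bone, and the log2 ratio of Col2a1 to Col1a1 was -6.35 ± 0.24 in wild type and -6.62 ± 0.38 in the mutant at day 5 (SD, n = 6), a difference of -0.27 that did not pass the exact permutation test (p = 0.177, adjusted 0.194). At 1 month it was -6.04 ± 0.65 in wild type and -7.64 ± 0.38 in the mutant, with no overlap (difference -1.60, exact permutation p = 0.00216, adjusted 0.00519). Col1a1 itself was lower in the mutant at day 5 (log2 fold change -1.71 ± 0.28, edgeR adjusted p = 3.2e-05) and higher at 1 month (1.15 ± 0.27, adjusted p = 0.0013).

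Col11a1 encodes the other main chain of type XI collagen and is also expressed outside cartilage. The log2 ratio of Col11a2 to Col11a1 was 0.95 ± 0.35 in wild type and 0.30 ± 0.16 in the mutant at day 5 (SD, n = 6), and 1.17 ± 1.01 and -0.55 ± 0.76 at 1 month. It was lower in every mutant library than in every wild-type library at both times (differences -0.65 and -1.72, exact permutation p = 0.00216 each, adjusted 0.00519). It was lower in each set of 1 month libraries by GC correlation, with mean differences of -1.69 above 0 and -1.74 below 0.

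Within the type IX chains the log2 ratio of Col9a1 to Col9a2 was lower in the mutant at day 5 (0.83 ± 0.36 and 0.17 ± 0.41, SD, n = 6, exact permutation p = 0.0130, adjusted 0.0195). At 1 month the difference of -0.73 did not pass after adjustment (p = 0.0476, adjusted 0.0635), but did without wild-type 1 month replicate 2 or mutant 1 month replicate 3 (exact permutation, adjusted 0.0227 and 0.0346). The log2 ratio of Hapln1 to Acan was -3.11 ± 0.26 in wild type and -3.65 ± 0.35 in the mutant at day 5 (exact permutation p = 0.0108, adjusted 0.0186). At 1 month it was -3.65 ± 1.15 and -4.03 ± 1.67 (p = 0.665), and its difference was -1.07 in the libraries above 0 in GC correlation and 0.32 in those below 0. Against Dcn, the gene of the fibroblast proteoglycan decorin, Acan was lower in every mutant library at day 5 (difference -0.89, exact permutation p = 0.00216, adjusted 0.00519), and at 1 month by -1.12 (p = 0.0628, adjusted 0.0753). That last ratio passed without wild-type 1 month replicate 1 (-1.37, adjusted 0.0195) or mutant 1 month replicate 6 (-1.40, adjusted 0.0346).

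**Figure D4:**
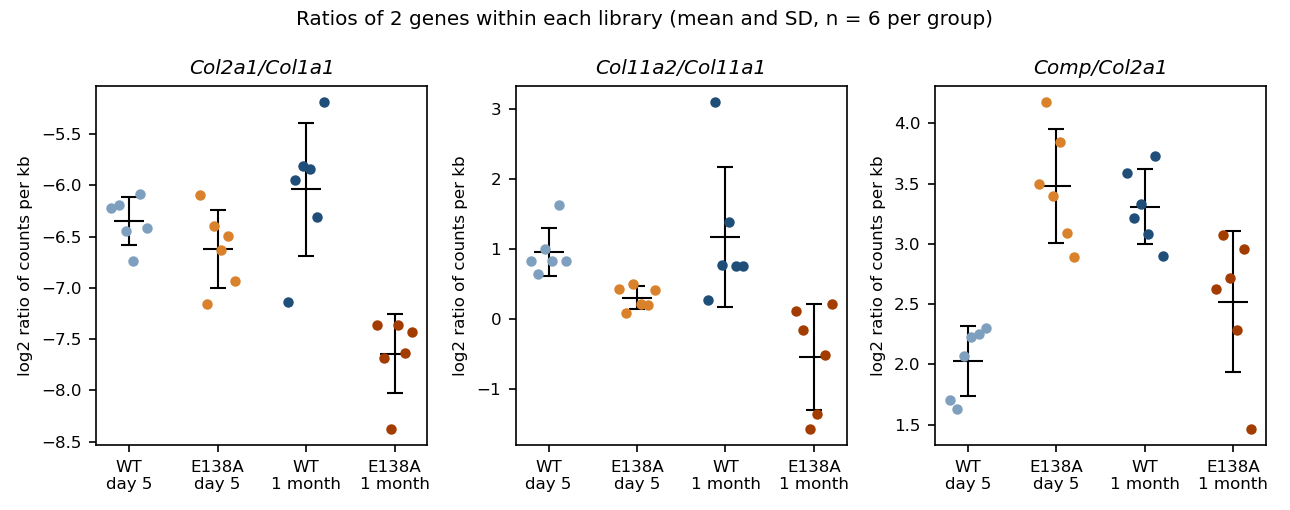
Log2 ratio of counts per kb (vertical axis) of 3 gene pairs in each library of the 4 groups (horizontal axis), with mean and SD over 6 libraries. The Col11a2 to Col11a1 ratio is lower in all mutant libraries at both times, that of Col2a1 to Col1a1 at 1 month, and that of Comp to Col2a1 is higher in all mutant libraries at day 5.

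Over time in wild type, 2 of the 9 genes changed, against 9.09% of all genes. Col9a1 fell from 58.3 ± 9.84 to 35.3 ± 7.55 CPM with no overlap (SD, n = 6, log2 fold change -0.74 ± 0.21, edgeR adjusted p = 0.025). Comp rose from 102.4 ± 12.6 to 164 ± 47.5 CPM (0.65 ± 0.21, adjusted p = 0.049). Acan, at 217 ± 27.5 and 342 ± 113 CPM, did not pass (0.62 ± 0.21, adjusted p = 0.059). These were near the threshold. The Col9a1 call was lost without wild-type day 5 replicate 1, 2 or 6 or wild-type 1 month replicate 2 or 4 (edgeR adjusted p from 0.052 to 0.064). The Comp call was lost without any 1 of the wild-type day 5 libraries, of wild-type 1 month replicates 2 to 6, of mutant day 5 replicates 1, 5 and 6, or mutant 1 month replicate 2 (adjusted p from 0.052 to 0.146). The Acan change passed without mutant day 5 replicate 3, wild-type 1 month replicate 1, or mutant 1 month replicate 3 or 6 (adjusted p from 0.0069 to 0.042). Acan also passed with DESeq2 (adjusted p = 0.019) and with voom (0.0019). In edgeR it passed with RLE size factors (0.040), only the libraries compared (0.040) or a filter at 1 CPM in 6 libraries (0.045). The GC correlation as a covariate gave 0.022, and the 1 month libraries above 0 gave 0.0026. Acan did not pass with those below 0, library totals only, no filter or the replicate number as a block. Among all genes called over time in wild type, 30.9% were lower, but 20.4% with size factors of the RLE method and 55.8% with the GC correlation as a covariate.

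Over time in the mutant, 3 of the 9 genes rose, against 11.2% of all genes called higher. Col9a2 rose from 6.17 ± 2.498 to 11.3 ± 3.74 CPM (SD, n = 6, log2 fold change 0.90 ± 0.26, edgeR adjusted p = 0.015). Matn3 rose from 0.651 ± 0.481 to 1.54 ± 0.241 CPM (1.22 ± 0.39, adjusted p = 0.031), and Col2a1 from 19.1 ± 6.25 to 35.9 ± 24.1 CPM (0.94 ± 0.33, adjusted p = 0.045). The groups overlapped for each of them. Without mutant 1 month replicate 6, Col2a1 changed by 0.49 (edgeR adjusted p = 0.232) and Col9a2 by 0.71 (adjusted p = 0.056). Matn3 was lost without mutant day 5 replicate 1, 2 or 4 or mutant 1 month replicate 2 (adjusted p from 0.051 to 0.063). The Col2a1 call was also lost without wild-type day 5 replicate 1, 2, 5 or 6, mutant day 5 replicate 1, 2, 4 or 5, wild-type 1 month replicate 3 or 4, or mutant 1 month replicate 1 (adjusted p of at least 0.051). Col9a3, at 16.6 ± 6.65 and 26.0 ± 7.68 CPM (adjusted p = 0.052), passed without mutant day 5 replicate 3, wild-type 1 month replicate 1, or mutant 1 month replicate 3 or 4 (adjusted p from 0.011 to 0.049). Col9a3 also passed with DESeq2 (adjusted p = 0.030) and with voom (0.016). In edgeR it passed with RLE size factors (0.048), the GC correlation as a covariate (0.021) or the 1 month libraries above 0 (0.0041). It did not pass with those below 0, library totals only, no filter or a filter at 1 CPM in 6 libraries. Nor did it pass with only the libraries compared or the replicate number as a block.

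The genes varied together among the libraries of a group at day 5 more than at 1 month. Correlations of their deviations from the group means, given as descriptions over 12 libraries, in which the points of each pair share tissue, depth and base composition, had a median of 0.71 over 36 gene pairs at day 5, from 0.14 to 0.95, with none below 0. At 1 month the median was 0.29, from -0.65 to 0.96, with 13 of 36 pairs below 0. The lowest pair at 1 month was Hapln1 with Col2a1, and the highest was Col9a2 with Col9a3. Mutant day 5 replicate 3 was the highest of its group for all 9 tested genes, and wild-type 1 month replicate 1 the lowest of its group for 8 of 9, Hapln1 being the exception. The coefficient of variation had a median over the 9 genes of 16.9% in wild type and 40.5% in the mutant at day 5, and of 30.8% and 29.5% at 1 month.

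Of all genes outside the 10, Cnmd had deviations most like the mean of the tested members (Pearson r = 0.872 over 24 libraries). Cnmd encodes chondromodulin, a cartilage protein that restrains blood vessel growth, and it fell from 67.1 ± 9.57 to 17.2 ± 8.02 CPM at day 5 (SD, n = 6, log2 fold change -1.93 ± 0.25, edgeR adjusted p = 1.7e-06) and by a similar size at 1 month (-1.84 ± 0.24, adjusted p = 1.5e-06). The next in order were Scube1 (r = 0.840), Fam189a1, Nrep, Pam, Fam107a, Ccdc74a, Dhx58os, Susd5 and Meltf (r = 0.755). Each of these 10 genes was lower in the mutant at both times, against 20.2% of all tested genes at day 5 and 21.5% at 1 month. Their log2 fold changes ran from -0.59 for Fam107a to -1.93 for Cnmd at day 5. At 1 month they ran from -0.61 for Ccdc74a, close to the threshold (edgeR adjusted p = 0.043), to -2.48 for Meltf. Among the members themselves r ran from 0.909 for Col9a3 to 0.294 for Hapln1, and these enter the mean that they are compared with.

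Promoters are shown as a description of sequence, and no link to the levels was tested. RefSeq promoters (GRCm38.p6, 250 bases before to 50 after a start) were at hand for 7 of the 10 genes. The motifs searched on both strands were the GC box GGGCGG, the TATA box TATAAA and the SOX motifs ACAATG and ACAAAG, which share their first letters. The GC box was in 5 of 7 (Acan, Col9a2, Col11a2, Matn1 and Matn3), and in 35.7% of 32851 promoters. These 5 promoters had a GC content of 59.0% for Col11a2 to 74.0% for Acan, against a median of 52.7% over all promoters. TATAAA was in that of Col11a2 and in 13.6% of all, and the SOX motifs were in none of the 7 and in 12.6% and 18.7% of all. For Acan and Col11a2 the RefSeq start lies before the GENCODE gene start given above, and for Matn3 they agree. The 150 bases just before the RefSeq start of Acan, Col11a2 and Matn3 (chr7:79053076-79053225, chr17:34038988-34039137 and chr12:8947779-8947928, all on the plus strand) follow with these motifs in capitals.
Acan: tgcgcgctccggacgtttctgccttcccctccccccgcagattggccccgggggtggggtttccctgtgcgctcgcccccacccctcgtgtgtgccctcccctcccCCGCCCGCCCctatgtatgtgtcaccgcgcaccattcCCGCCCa
Col11a2: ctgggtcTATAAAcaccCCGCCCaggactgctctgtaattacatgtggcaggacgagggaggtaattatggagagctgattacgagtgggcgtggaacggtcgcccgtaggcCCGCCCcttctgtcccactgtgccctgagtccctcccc
Matn3: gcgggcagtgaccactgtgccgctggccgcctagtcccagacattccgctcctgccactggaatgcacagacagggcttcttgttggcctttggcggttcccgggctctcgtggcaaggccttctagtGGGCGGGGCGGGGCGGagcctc
A match describes these letters only.

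Of 14 tested genes in a list of 15 other cartilage matrix genes, 11 fell and 1 rose at each time (median log2 fold change -1.43 at day 5 and -2.06 at 1 month). For this and the lists that follow, the shares of all tested genes that fell were 20.2% at day 5 and 21.5% at 1 month, and the shares that rose 20.7% and 25.5%. Among its most abundant genes, Chad, which encodes the cartilage protein chondroadherin, fell by 1.31 at day 5 and by 2.53 at 1 month on the log2 scale, and Col27a1, a fibrillar collagen gene, fell by 1.36 and by 2.01. Cytl1, a secreted protein gene of chondrocytes, had -0.44 ± 0.30 at day 5 (edgeR adjusted p = 0.257) and fell by 2.19 at 1 month. Col11a1 fell by 1.62 at day 5 and had -0.12 ± 0.29 at 1 month (adjusted p = 0.768).

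Of 7 tested chondrocyte transcription factors in a list of 9, 3 fell and 1 rose at day 5, and 2 fell and 2 rose at 1 month. Sox9, the factor that sets chondrocyte identity, fell by 0.88 at day 5 (edgeR adjusted p = 4.3e-05) and had -0.28 ± 0.14 at 1 month (adjusted p = 0.120), while its partner Sox6 fell by 0.91 and by 1.39. Of 9 tested signalling genes in a list of 10, 6 fell at each time and 1 rose at 1 month. Frzb, a secreted Wnt inhibitor of cartilage, fell by 1.22 and by 2.00, and Npr2, a natriuretic peptide receptor of growing cartilage, by 0.75 and by 1.23. Fgfr3, a receptor that is also present in epidermis, had 0.19 ± 0.11 at day 5 (adjusted p = 0.176) and fell by 0.67 at 1 month.

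Genes that make or break down the same matrix were divided. For sulphated proteoglycan synthesis, a list that also holds a hyaluronan synthase gene, 7 of 15 fell and 2 rose at day 5. At 1 month 6 fell and 2 rose. Xylt1, which starts the sugar chains, fell by 1.21 at day 5 and by 1.42 at 1 month. For collagen processing, 4 of 12 fell and none rose at each time by the edgeR test. Of 14 genes in the list of aggrecan and collagen degradation, 9 rose and 3 fell at day 5, and 10 rose and 1 fell at 1 month. Timp3, an inhibitor of aggrecan-cleaving enzymes that this list also holds, fell by 1.37 and by 1.43. Ctsk, a collagen-cleaving cathepsin, fell by 0.63 at day 5 and rose by 1.22 at 1 month.

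**Figure D5:**
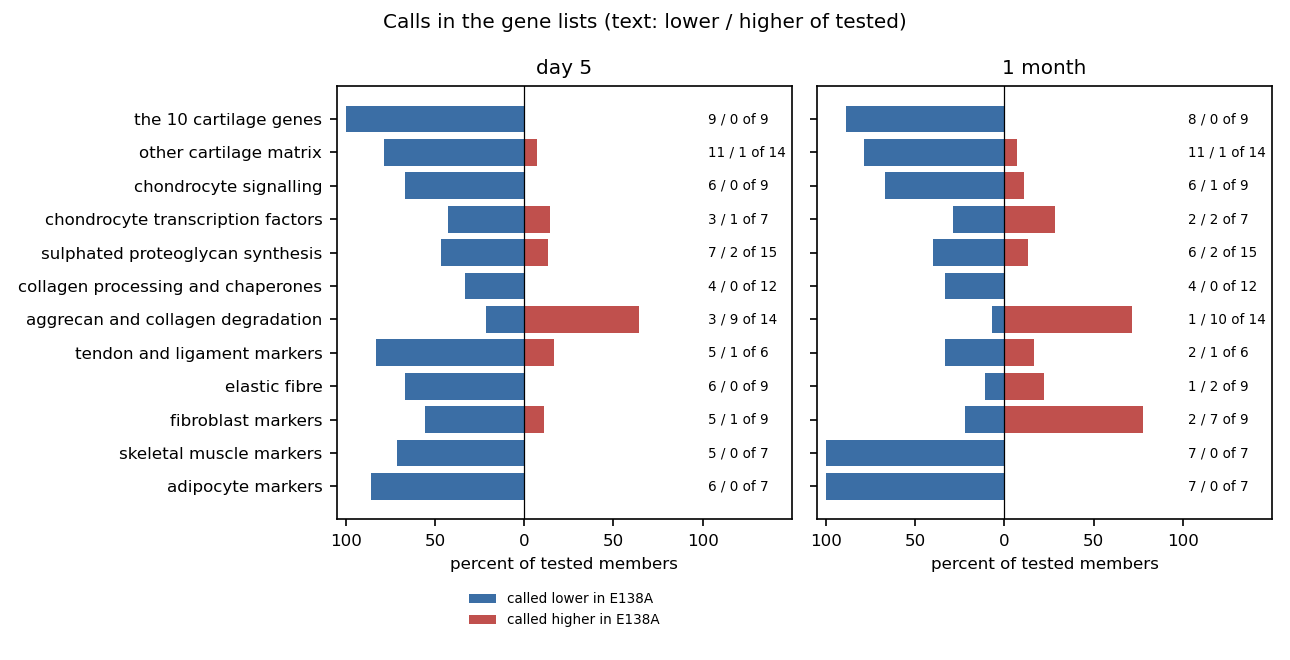
Share of tested genes called lower (left of 0) and higher (right of 0) in the mutant for the cartilage genes and for other lists, at day 5 and 1 month; the text at the right of each row gives lower, higher and tested. The cartilage genes have 9 of 9 and 8 of 9 lower, and the fibroblast list has 5 lower at day 5 and 7 higher at 1 month.

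Markers of several other ear tissues differed between the genotypes, and the same shares of all genes apply. The 7 adipocyte markers had 6 lower at day 5 and 7 lower at 1 month, and the 7 skeletal muscle markers 5 and then 7. The summed level of the adipocyte markers at day 5 ran from 496 to 841 CPM in wild type and from 196 to 407 in the mutant, and that of the muscle markers from 3981 to 5191 and from 1606 to 3450. At 1 month these levels ran from 724 to 1216 CPM in wild type and from 204 to 429 in the mutant for fat, and from 5446 to 14791 and from 857 to 3472 for muscle. Of the 9 fibroblast markers 5 fell and 1 rose at day 5, and 2 fell and 7 rose at 1 month. Their summed levels were 13228 to 18937 CPM in wild type and 5240 to 9002 in the mutant at day 5. At 1 month they were 8542 to 13257 and 11907 to 30613. In wild type at day 5, Col1a2 at 4820, Col3a1 at 4599 and Col1a1 at 4526 made up most of the mean sum of 16912 CPM. The sum thus mainly reflects these collagen genes. The elastic fibre list had 6 of 9 lower at day 5. At 1 month it had 1 lower and 2 higher, which is no more than the shares of all genes. All 5 tested neutrophil markers of 6 were higher at both times, and Ly6g was at 0 in wild type at day 5. The summed level of this list was at most 52.6 CPM in any wild-type library and at least 1938 in any mutant one. Most of its mutant day 5 mean of 4825 CPM came from S100a9 at 2748 and S100a8 at 1919. The sum thus mainly reflects these 2 genes and is no measure of neutrophil number. Of 6 tendon markers, relevant to Comp, 5 fell and 1 rose at day 5, and 2 fell and 1 rose at 1 month. Their summed levels ran from 261 to 331 CPM in wild type and from 244 to 387 in the mutant at day 5. At 1 month the sums ran from 270 to 421 and from 215 to 318. Egr1, the marker that rose, had a mean of 59.9 CPM in wild type and 169 in the mutant at day 5. The day 5 sum therefore does not show the fall of the other 5 markers. No other marker of these lists was at 0 throughout a group. Tnmd, which encodes tenomodulin of tendon, fell by 1.62 at day 5 and had -0.10 ± 0.21 at 1 month (edgeR adjusted p = 0.719). Of 7 keratinocyte markers 3 rose and 1 fell at day 5, and 4 rose and 2 fell at 1 month. Their mean summed level was 23570 CPM in wild type and 27196 in the mutant at day 5, and 21254 and 37353 at 1 month. Of 6 macrophage markers 5 rose at day 5 and 6 at 1 month, with mean sums of 366 and 614 CPM, then 455 and 875. The part of these tissues in the levels of the cartilage genes was not tested.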

How the data were processed

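The libraries were made from polyA RNA of whole ears and read from 1 end, per the labels' protocols. The authors deposited expected counts per Ensembl gene made with RSEM, per the file headers, and the submitters' processing notes name RSEM 1.3.0, STAR 2.5.2, DESeq2 1.14.1 and GRCm38; the annotation release and the strand setting are not given in the sources used here. Values were rounded, 6.71% of them not being whole numbers as deposited. GENCODE M21 gave symbols, exon lengths and GC content, and held 51719 of the 51912 identifiers; coding stretches are from the longest reading frame starting with ATG. In edgeR 4.0.16 (R 4.3.3) genes were filtered by filterByExpr, scaled by TMM and fitted with 1 coefficient per group over all 24 libraries, with robust quasi-likelihood F tests, two-sided, adjusted by Benjamini-Hochberg over 17289 genes; a standard error is the log2 fold change divided by the square root of F. CPM uses library totals without TMM. Ratios use log2 of counts plus 0.5, divided by exon length, and correlations use log2 of CPM plus 0.5. On simulated data for the day 5 comparison (17083 genes) 61 of 66 seeded 4-fold changes were called, 46 of 67 at 2-fold and 19 of 67 at 1.5-fold, with 3 false calls. No 2 libraries of a group agreed within sampling noise (smallest chi-square per degree of freedom 4.86 over 60 pairs). The 10 genes and all lists were chosen with earlier results of these data known. Of each other list, up to 4 genes with the highest mean CPM could be named, and outside the lists the 10 genes whose deviations were most like the members' mean, together with Card14. Alternatives were DESeq2 1.42.0, voom of limma 3.58.1, other scalings and filters, a replicate block, only the libraries compared, leaving out each library, and, chosen after seeing the data, the GC correlation of libraries and leaving out mutant day 5 replicates 1 and 3.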

Additional observations from a re-analysis of the deposited data

Results flagged for a closer look

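Single libraries stood apart from the other 5 of their group in 7 of 60 sets of 6 values examined. A set was flagged where the gap to the next value exceeded 0.625 of the range (Dixon's rule). For independent normal values this flags about 5% of sets. The sets share genes and libraries, so whether 7 exceeds chance was not tested. For Col2a1 mutant 1 month replicate 6 was high at 82.3 CPM (next 41.3), and the same library was high for Col9a3 at 40.3 CPM (next 25.5). For Col9a1 mutant day 5 replicate 3 was high at 20.7 CPM (next 12.1). For Col11a2 wild-type day 5 replicate 4 was low at 71.3 CPM (next 87.5), and for Matn3 wild-type 1 month replicate 3 was high at 5.87 CPM (next 4.35). The log2 ratio of Col2a1 to Col1a1 was low in mutant 1 month replicate 3 at -8.37 (next -7.69), and that of Col11a2 to Col11a1 was high in wild-type day 5 replicate 5 at 1.63 (next 0.99).

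The genotype difference changed between day 5 and 1 month, by the edgeR interaction test (log2, 1 month less day 5), for Col2a1 by 1.56. Among the other genes named or open to naming it was positive for Col11a1 at 1.498, Mmp14 at 1.08, Ctsk at 1.845, Serpinh1 at 0.95, Tnmd at 1.52, Col1a1 at 2.86, Col1a2 at 2.49, Col3a1 at 2.38, Eln at 1.70, Fbn1 at 1.08 and Nrep at 1.21. It was negative for Chad at -1.22, Cytl1 at -1.74, Fgfr3 at -0.86, Fam107a at -1.18 and Dhx58os at -1.21.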

How the results depend on the processing

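The count of members called at day 5 was 8 to 9, and at 1 month 8 to 9, on leaving out each library in turn. The percentages are the shares of all genes called under that setting. With an interaction call (1 as reported, 8.77% of all genes), there were 2 with DESeq2 (11.2%), 0 without a filter (3.56%), 6 with voom (47.5%), 2 with the GC correlation as a covariate (15.4%) and 0 to 2 on leaving out each library; with the 1 month libraries below 0 in GC correlation (16.1%) the 1 call was Comp (-1.02, adjusted p = 0.016) and Col2a1 was lost (0.97, adjusted p = 0.124). For wild type over time (2 as reported, 9.09%) there were 5 with voom (47.5%), 4 with the libraries above 0 (41.0%), 0 with those below 0 (5.62%) and 0 to 3 on leaving out each library, so the voom count and that of the libraries above 0 are near the background. For the mutant over time (3 rises as reported) there was 1 rise with only the libraries compared (12.9% in either direction), 5 calls with the libraries above 0 (4 rises, 56.5%) and 1 to 4 on leaving out each library. With the libraries below 0 (29.2%) all 3 rises were lost (adjusted p = 0.62 for Col2a1, 0.125 for Col9a2 and 0.071 for Matn3), and the 1 call was a fall of Comp (-0.59, adjusted p = 0.029). Hapln1 in the mutant over time turned from 0.08 to -1.55 with the libraries above 0 only. The cause of these changes was not tested. The settings under which Acan in wild type and Col9a3 in the mutant passed over time are given with those results. Col2a1 at 1 month passed with voom (-1.13, adjusted p = 6.2e-04) and in the libraries below 0 (-1.04, adjusted p = 0.020). Without mutant day 5 replicates 1 and 3 the day 5 ratio of Col9a1 to Col9a2 no longer passed (-0.56, adjusted exact permutation p = 0.0571).

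With the replicate number as a block, 0 members had an interaction call (6.17% of all genes), 1 changed over time in wild type (5.89%), and Comp at day 5 (-0.56, adjusted p = 0.059) and Col2a1 over time in the mutant were lost. Little likeness was seen between libraries of the same number: 5 of 36 such pairs had a correlation of deviations above 0.1 (median -0.01). Of 24 libraries, 3 correlated best with their own number. This cannot exclude pairing, since libraries also differed in GC correlation. The lowest pair, at -0.74, was wild-type and mutant 1 month replicate 1, with GC correlations of -0.59 and 0.62.

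Over all genes, the number of calls moved by more than 1.5 times in these cases. At day 5 it was 7070 as reported and 11693 with voom. For the interaction it was 1517 as reported, 8214 with voom, 2669 with the GC covariate and 2828 with the libraries below 0. For wild type over time it was 1572 as reported, 2458 with DESeq2, 1019 with the block, 8217 with voom, 6084 with the GC covariate, 7217 and 989 with the libraries above and below 0, and 1025, 1028, 3028 and 937 without wild-type day 5 replicates 2 and 4 and wild-type 1 month replicates 1 and 5. For the mutant over time it was 3363 as reported, 2109 with only the libraries compared, 5878 with voom, 7164 with the GC covariate and 9942 and 5133 with the libraries above and below 0. Depth limits Matn3 and Matn1.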
